A study of Homo sapiens with 4 samples.

Results

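The BCL2 family comprises the proteins that decide whether the outer mitochondrial membrane is breached during apoptosis, and 10 of its genes are described here, BCL2, BCL2L1, MCL1, BAX, BAK1, BBC3, PMAIP1, BCL2L11, BID and BAD. They were taken from the deposited count table by gene symbol, and all 10 were among its 40205 genes. All 10 also passed the filter on low counts, which left 16323 genes for testing. The libraries came from cells labelled SKOV3, a human ovarian cancer cell line, grown in medium with fetal bovine serum. In 2 libraries the cells had been exposed for 24 h to 80 µg/mL of 20(S)-Rg3, a saponin of ginseng, and 2 libraries came from cells labelled as controls. The labels do not say whether controls received a vehicle, they describe the RNA as pooled, and they leave unstated whether libraries of the same group stem from different cultures, so a p-value reflects the spread of these libraries, possibly only a technical one.

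Members of the family act by binding one another. Anti-apoptotic members (BCL2, the BCL-XL protein of BCL2L1, and MCL1) hold the pore-forming members BAX and BAK1 in check. BH3-only members, which include PUMA (gene BBC3), NOXA (PMAIP1), BIM (BCL2L11), BID and BAD, are induced or modified by stress, occupy the binding groove of the anti-apoptotic proteins and in some cases activate BAX and BAK1 directly. Once BAX or BAK1 forms pores, cytochrome c leaves the mitochondria and caspases are activated. Much of this control acts on the proteins, through cleavage of BID, phosphorylation of BAD and rapid turnover of MCL1, and counts of RNA do not measure it.

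None of the 10 genes passed the test for a difference between cells given Rg3 and controls. The gene with the largest fold difference was PMAIP1, at 3.81 ± 0.282 CPM in controls and 5.38 ± 0.563 CPM with Rg3 (mean ± SD over n = 2 libraries a group; CPM is the count scaled to a common library size), and BAX had the most negative value, at 21.0 ± 0.397 and 17.8 ± 3.10 CPM. All log2 fold changes but that of PMAIP1 lay within 0.25 of 0, and 5 of the 10 were positive and 5 negative. Their median was −0.0033, beside 0.014 over all genes tested, of which 52.5% were positive. With edgeR's quasi-likelihood test and Benjamini-Hochberg adjustment over all genes tested, 0 members were called at an adjusted p under 0.05, the adjusted p was 0.999 for each, and 0 had an unadjusted p under 0.05. Over all genes 0.0306% were called and 4.73% had an unadjusted p under 0.05. DESeq2 and limma voom also called 0 members.

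The libraries held 24482846 to 30132517 counts, and members had between 12 and 4368 counts in a library. The genes called over the whole table were 5 cholesterol synthesis genes, MSMO1, SQLE, IDI1, HMGCS1 and CYP51A1, all higher with Rg3. Markers of the labelled line were mixed. The keratin genes KRT7, KRT8 and KRT18 were at 1557 to 2817 CPM, but EPCAM, an epithelial adhesion gene, had 0 counts in all 4 libraries, which allows at most 0.125 CPM in any of them (3 counts, covering counting error only). KRT19 had 0 to 2 counts and the lineage factor PAX8 8 to 18. ERBB2, which is amplified in SKOV3, was at 45.2 to 53.5 CPM. CDKN2A, taken as lost in this line in the marker list used here, had 1692 to 2151 counts. The cells are named by their label throughout. Of 8 markers of leukocytes, macrophages, endothelium, fibroblasts and hepatocytes, CD3E and ALB were at 0 in every library. PTPRC and COL3A1 were at 0 in all but control 2. PECAM1 had 1 to 7 counts, VWF 6 to 17 and COL1A1 39 to 144. The summed level ran from 19.6 to 24.2 CPM in controls and from 12.4 to 22.8 CPM with Rg3. Most of it was CD68, at 21.3 and 16.7 CPM in controls against 17.3 and 10.5 CPM with Rg3, so its groups overlapped. Which cells gave the CD68 counts was not tested. In bulk RNA, fewer cells of a kind and less RNA per cell cannot be told apart.

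**Figure D1:**
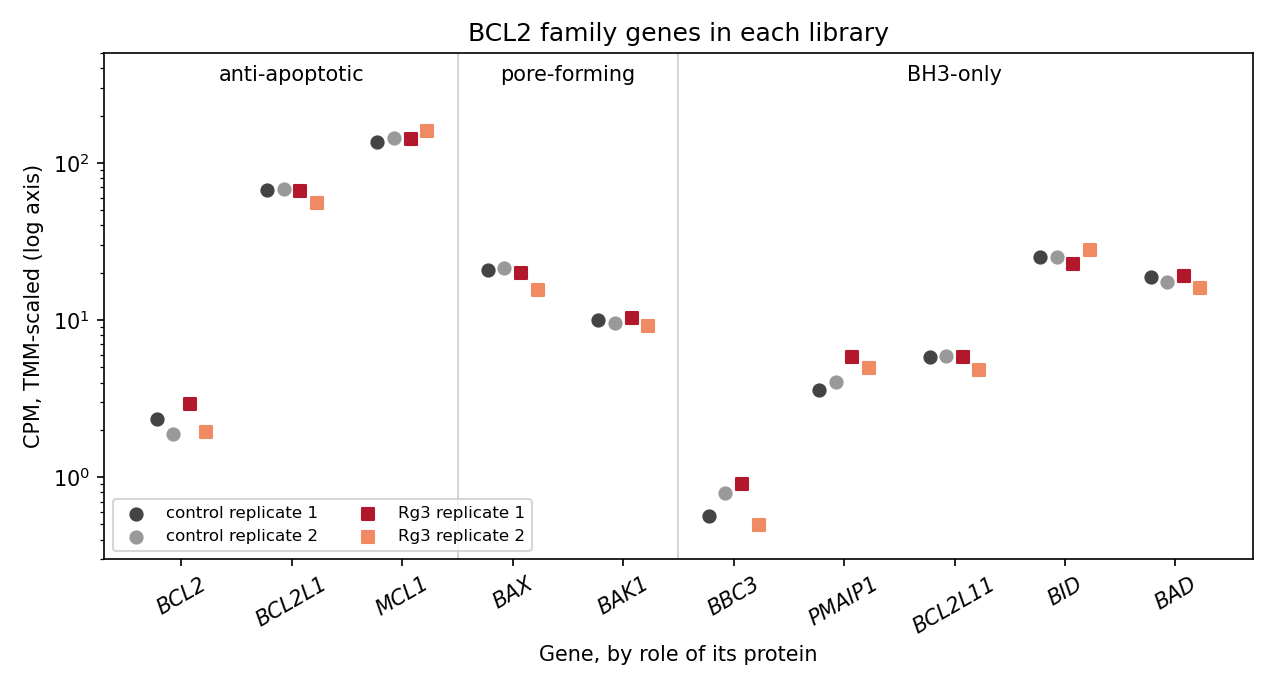
Levels of the 10 genes in each library. The vertical axis is TMM-scaled CPM on a log scale, circles are the 2 control libraries and squares the 2 Rg3 libraries, and genes are ordered by the role of their protein. The 4 points of most genes lie close together, and both Rg3 points lie above both control points by a visible margin for PMAIP1 alone.

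Upstream sequences are shown for 3 members, the genes with the highest and the lowest log2 fold change (PMAIP1 and BAX) and BAD, which shares a motif with PMAIP1. They are the 250 bases before the annotated start, from RefSeq on GRCh38.p14, printed 5′ to 3′ on the strand of the gene. The authors' counts used GRCh37, so these coordinates belong to the sequences only. Capitals mark TGACGT or its complement ACGTCA, the core of the cyclic AMP response element bound by the ATF and CREB factors, in PMAIP1 (chr18:59899746-59899995, plus strand) and BAD (chr11:64284705-64284954, minus strand). In BAX (chr19:48954625-48954874, plus strand) they mark CACGTG, the E-box bound by basic helix-loop-helix factors.
PMAIP1: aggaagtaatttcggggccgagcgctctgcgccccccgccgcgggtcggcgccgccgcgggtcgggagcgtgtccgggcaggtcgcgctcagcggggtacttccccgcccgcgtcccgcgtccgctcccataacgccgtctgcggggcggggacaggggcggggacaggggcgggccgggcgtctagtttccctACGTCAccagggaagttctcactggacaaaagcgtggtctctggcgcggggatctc
BAD: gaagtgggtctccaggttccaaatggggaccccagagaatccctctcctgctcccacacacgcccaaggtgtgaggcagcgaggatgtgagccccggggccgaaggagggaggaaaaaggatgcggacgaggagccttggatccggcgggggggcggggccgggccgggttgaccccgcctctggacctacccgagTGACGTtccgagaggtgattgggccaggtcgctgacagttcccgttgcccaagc
BAX: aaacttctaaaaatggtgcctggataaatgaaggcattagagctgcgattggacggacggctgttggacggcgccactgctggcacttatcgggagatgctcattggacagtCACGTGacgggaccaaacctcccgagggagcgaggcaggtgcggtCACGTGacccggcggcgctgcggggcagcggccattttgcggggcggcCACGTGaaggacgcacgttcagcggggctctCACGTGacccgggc

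The CRE core began 56 bases before the start of PMAIP1 and 54 bases before that of BAD, and 7.1% of 35116 RefSeq promoter entries held it on either strand in a window of this length. The 2 genes with this match had log2 fold changes of 0.50 and −0.049. CACGTG, which reads the same on both strands, occurred 4 times upstream of BAX, at 138, 93, 45 and 14 bases before the start, and 6.34% of entries held it at least once. It also occurred once upstream of BBC3. For BID, 2 of the 5 entries overlap and hold the same single match, 106 and 47 bases before their starts. The forkhead sequence GTAAACA (2.98% of entries), occurred upstream of BCL2L11 only, 223 bases before its start. No 2 different motifs overlapped in these windows. Entries were found for 9 of the 10 members, all but MCL1. A match describes letters in a window and is not a measured binding site.

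Among the anti-apoptotic genes, BCL2 stood at 2.35 and 1.89 CPM in the controls against 2.92 and 1.95 CPM after Rg3, from 58, 50, 90 and 47 counts. Only Rg3 replicate 1 lay above the controls, and the groups overlapped. This gave a log2 fold change of 0.21 (SE 0.31, 95% interval −0.51 to 0.93), with −0.12 when Rg3 replicate 1 was left out and 0.46 when Rg3 replicate 2 was. BCL2 guards mitochondria in many tumours, and at this depth its interval spans 0.701-fold to 1.91-fold.

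For BCL2L1 the controls read 67.1 and 67.7 CPM and the Rg3 libraries 66.7 and 55.2 CPM. The control values nearly coincided, Rg3 replicate 1 sat just under them, and Rg3 replicate 2 was clearly lower. Its log2 fold change was −0.15 (SE 0.15, interval −0.48 to 0.19), and over the fits that each left out 1 library it ran from −0.28 to −0.015. The gene makes a long, anti-apoptotic and a short, pro-apoptotic splice form, which counts per gene do not separate.

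Levels of MCL1 were 137 and 143 CPM in controls, then 142 and 159.7 CPM after Rg3. Here Rg3 replicate 2 was the highest library and Rg3 replicate 1 lay between the controls. Its log2 fold change was 0.11 (SE 0.14), and the interval of −0.21 to 0.42 corresponds to folds between 0.866 and 1.34. With 1 library left out it ran from 0.022 to 0.20. MCL1 encodes a short-lived protein whose loss sensitises many cells to BH3-only proteins, and its RNA too can be spliced into a shorter pro-apoptotic form.

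Of the pore-forming genes, BAX read 20.7 and 21.3 CPM in controls against 20.0 and 15.6 CPM after Rg3. Both Rg3 libraries were below both controls, though Rg3 replicate 1 by less than 1 CPM. The difference was −0.24 in log2 (SE 0.17, interval −0.64 to 0.17) with an unadjusted p of 0.210 in edgeR's test. It was −0.43 when Rg3 replicate 1 was dropped and −0.071 when Rg3 replicate 2 was. The former fit gave an edgeR adjusted p of 0.0776, the lowest of any member under any alternative, but it sets 1 Rg3 library against both controls, takes its spread from the controls alone, and called 428 genes higher and 456 lower over the whole table. BAK1 read 10.1 and 9.61 CPM in controls against 10.4 and 9.13 CPM after Rg3, so that the Rg3 libraries lay on either side of the controls. Its log2 fold change was −0.012 (SE 0.18, interval −0.44 to 0.41). The pseudogene BAK1P1 gave 79 and 84 counts for controls, then 109 and 62 for Rg3, beside 248, 254, 319 and 220 for BAK1, and reads may have been split between these copies.

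PMAIP1, whose product NOXA binds MCL1 in particular, had 89 and 106 control counts against 178 and 120 after Rg3. As CPM, controls read 3.61 and 4.01 and the Rg3 libraries 5.78 and 4.98. Both Rg3 libraries were above both controls. The difference was 1.41-fold, a log2 fold change of 0.50 (SE 0.22, interval −0.014 to 1.01), and 10.2% of all genes tested had a larger absolute value. The unadjusted p of 0.0549 was the smallest of the 10 genes, and the edgeR adjusted p was 0.999. In fits that left out 1 library the log2 fold change ran from 0.39 to 0.60, always positive, with a lowest adjusted p of 0.173.

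BBC3, which encodes PUMA, was the least counted member, with 14 and 21 control counts against 28 and 12 after Rg3. Its levels of 0.568 and 0.795 CPM in controls lay between the 0.909 and 0.498 CPM of the Rg3 libraries. A log2 fold change of 0.065 had an SE of 0.45, and its interval from 0.501-fold to 2.18-fold does not exclude a 2-fold rise at this depth.

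BCL2L11, the gene of BIM, read 5.85 and 5.90 CPM in controls against 5.81 and 4.82 CPM after Rg3. As with BCL2L1, the controls nearly coincided and the lower value came from Rg3 replicate 2. In log2 the groups differed by −0.14 (SE 0.21, interval −0.63 to 0.35), and by −0.28 to −0.014 with 1 library left out. BID, which caspase 8 cleaves into its active form, read 25.2 and 25.1 CPM in controls against 22.6 and 27.9 CPM after Rg3, so the Rg3 libraries lay on either side of the controls. Its log2 fold change was 0.0057 (SE 0.16, interval −0.37 to 0.38). BAD, which is held inactive by phosphorylation, read 18.8 and 17.6 CPM in controls against 19.1 and 16.0 CPM after Rg3, again on either side, with a log2 fold change of −0.049 (SE 0.17, interval −0.43 to 0.34). BAD overlaps GPR137 in the RefSeq annotation, and the latter collected 261 and 279 control counts against 422 and 289 after Rg3. The strand setting of the counting is not given in the sources used here, so reads of the overlap cannot be assigned with certainty.

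**Figure D2:**
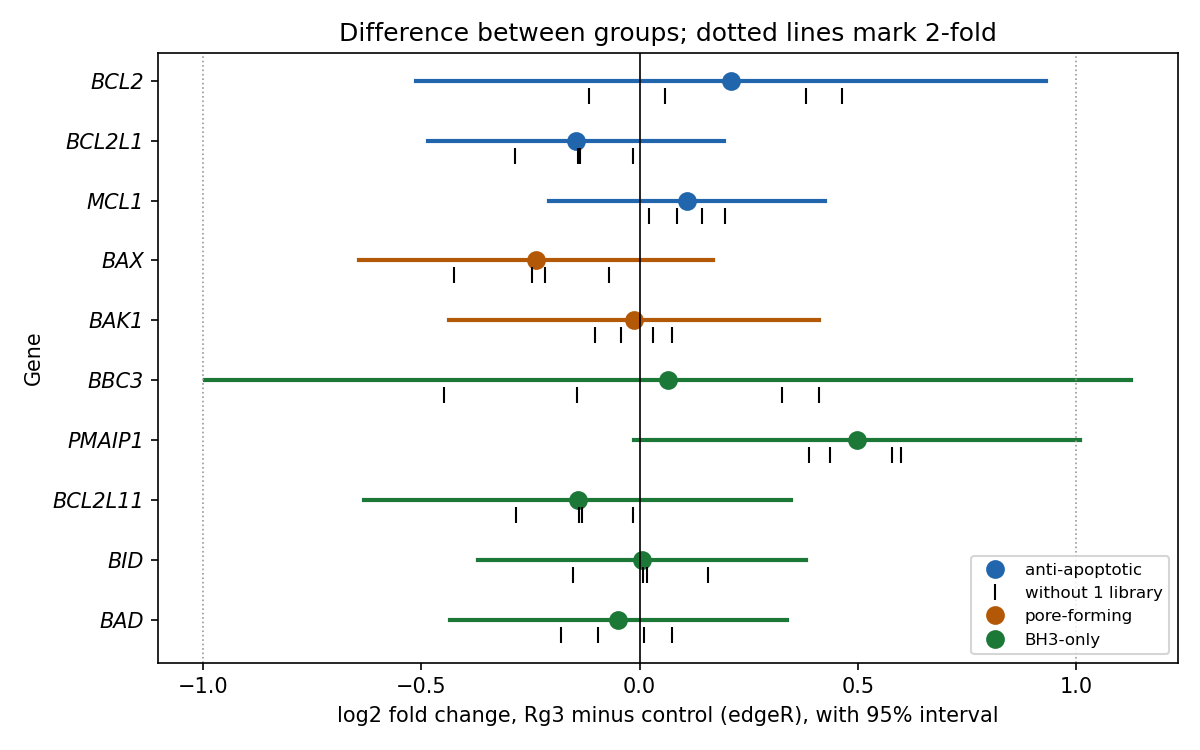
Log2 fold changes of the 10 genes. Circles are edgeR estimates of Rg3 minus control with bars for the 95% interval, coloured by role, and short ticks are estimates without 1 library each. Every interval includes 0, and those of PMAIP1 and BBC3 alone reach past 1, which is 2-fold.

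The precision differed between members with their counts. The 95% interval excluded a 2-fold difference in either direction for 8 of the 10 genes, all but PMAIP1 and BBC3, beside 75.6% of all genes tested. A 1.5-fold difference was excluded in both directions for 5 genes, BCL2L1, MCL1, BAK1, BID and BAD, beside 42.0% of all genes. These intervals are not adjusted for the number of genes and use a variance that edgeR moderates across genes.

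The groups did not overlap for 4 members, 1 with both Rg3 libraries above both controls (PMAIP1) and 3 with both below (BCL2L1, BAX and BCL2L11). The share over all genes tested was 15.3% above and 17.0% below, or 32.3% together, near the 4 of 10 seen here. With DESeq2's size factors BCL2L1 and BCL2L11 overlapped, leaving 1 above and 1 below. With CPM not scaled by TMM, MCL1 joined PMAIP1 above, giving 2 above and 1 below. The share over all genes was computed with TMM scaling only, so these other counts have no background beside them. PMAIP1 and BAX kept their side under all 3 scalings.

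For all 10 members the gap between the Rg3 libraries was wider than that between the controls, as for 70.6% of all genes tested. For 9 of the 10, all but PMAIP1, the difference between the Rg3 libraries exceeded that between the groups (70.4% of all genes; both comparisons on log2 of CPM + 0.5). The median absolute log2 difference over the members was 0.26 between the Rg3 libraries, 0.064 between the controls and 0.12 between the groups, beside 0.26, 0.13 and 0.13 over all genes. For 8 members, all but MCL1 and BID, Rg3 replicate 1 was the higher Rg3 library, beside 48.9% of all genes. The log2 difference between the Rg3 libraries was 0.27 for BCL2L1 and 0.36 for BAX, where counting error alone gives an SE of 0.051 and 0.094. It was 0.87 for BBC3, with a counting SE of 0.50. Which property of the 2 libraries moved with this was not tested.

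**Figure D3:**
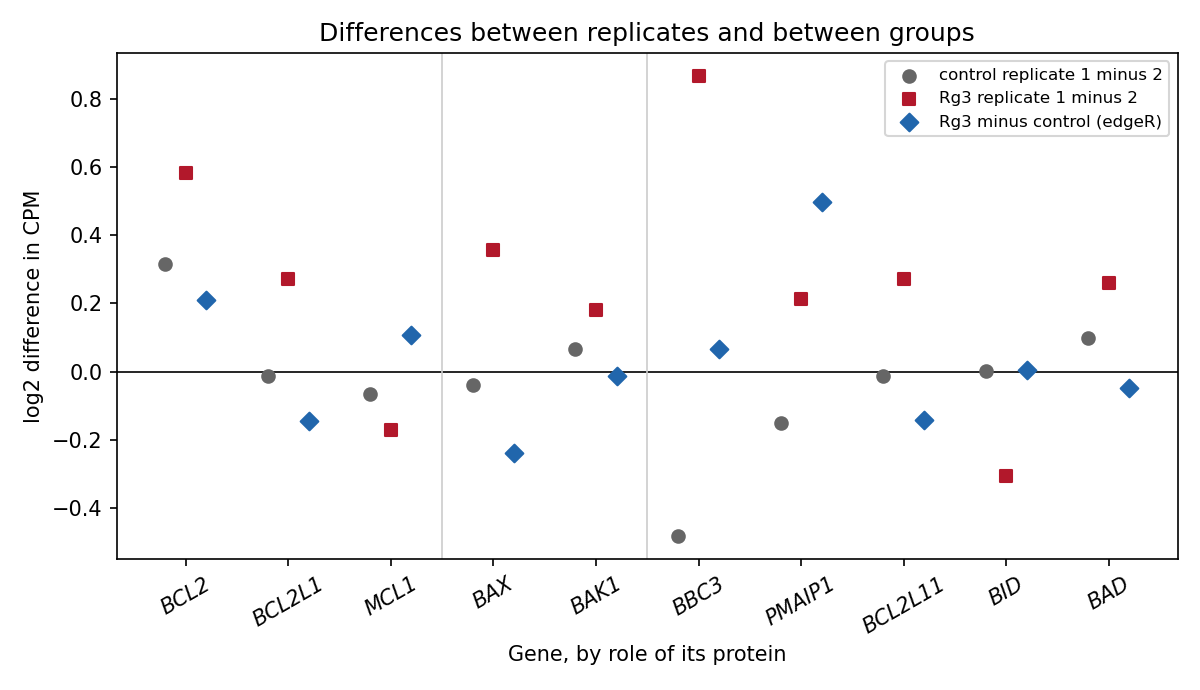
Differences between replicates and between groups for each gene. The vertical axis is a log2 difference in CPM, circles are control replicate 1 minus 2, squares Rg3 replicate 1 minus 2, and diamonds the edgeR estimate of Rg3 minus control. Squares lie farther from 0 than diamonds for 9 genes, and PMAIP1 is the exception.

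The balance of pro- and anti-apoptotic genes was read as 6 ratios of counts within each library, which do not depend on the scaling between libraries. A ratio has no absolute meaning here, since the genes differ in length, and only its difference between groups is described. No test was run, since the pairs of genes were chosen with earlier results of these data known. With 2 libraries a group, a 2-sided exact permutation test also cannot give a p under 0.333. The ratio of BAX to BCL2 was 8.81 and 11.3 in controls and 6.84 and 8.00 with Rg3. Both Rg3 libraries lay below both controls, by 0.43 in mean log2 ratio with a counting SE of 0.20 and SDs of 0.25 in controls and 0.16 with Rg3. The difference was −0.61 without control 1 and −0.25 without control 2. BAX to BCL2L1 was 0.309 and 0.315 in controls and 0.300 and 0.283 with Rg3. It was also lower in both Rg3 libraries but by less than 0.1 in log2, with a counting SE of 0.074. BCL2L11 to BCL2 was 2.48 and 3.12 in controls and 1.99 and 2.47 with Rg3, where the nearer pair of values almost met. The log2 difference of −0.33 had a counting SE of 0.22 and ran from −0.49 to −0.16 when 1 library was left out. It shares the 47 to 90 counts of BCL2 with the ratio of BAX to BCL2, so these ratios are not separate observations. The share of all genes whose ratio to the same denominator was lower in both Rg3 libraries was 20.4% for BCL2 and 7.48% for BCL2L1.

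PMAIP1 to MCL1 was 0.0264 and 0.0281 in controls and 0.0408 and 0.0312 with Rg3. Both Rg3 libraries were above both controls, with a mean log2 difference of 0.39, a counting SE of 0.14 and SDs of 0.061 in controls and 0.27 with Rg3. The difference was 0.20 when Rg3 replicate 1 was dropped and 0.58 when Rg3 replicate 2 was, and 7.33% of all genes had a higher ratio to MCL1 in both Rg3 libraries. BAK1 to MCL1 was 0.0737 and 0.0672 in controls and 0.0730 and 0.0572 with Rg3, and BBC3 to BCL2L1 was 0.00846 and 0.0117 in controls and 0.0136 and 0.00902 with Rg3. In both of these the groups overlapped.

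**Figure D4:**
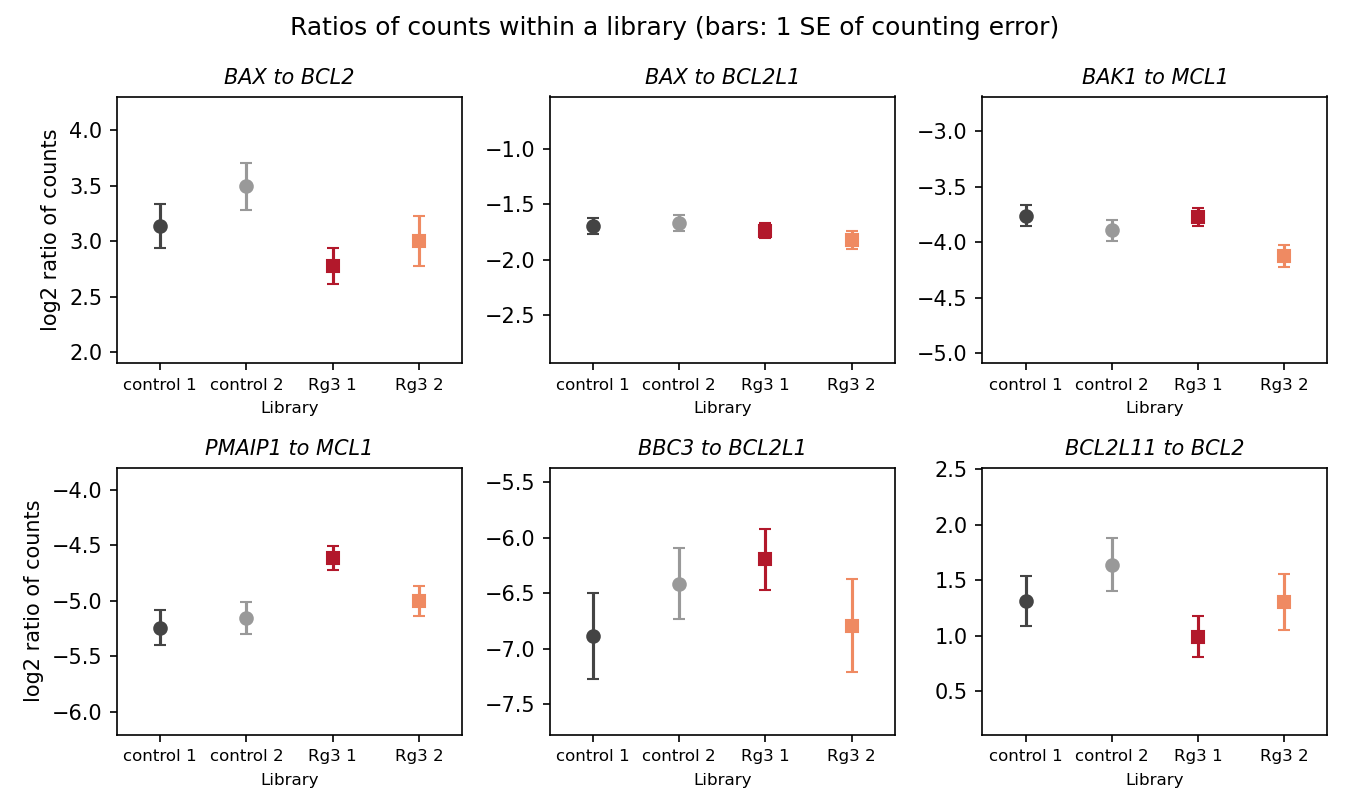
Ratios of counts of a pro- to an anti-apoptotic gene in each library. Each panel plots the log2 ratio over an axis of the same width, and bars are 1 SE of counting error. Rg3 points lie below both controls for BAX to BCL2, BAX to BCL2L1 and BCL2L11 to BCL2, and above both for PMAIP1 to MCL1.

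Of 14 other genes, those of the wider family and the BCL2 interactor BCLAF1, 10 passed the filter and 0 were called. Their log2 fold changes were above 0 for 4 and below for 6, with a median of −0.096. With edgeR 1 of the 10 had an unadjusted p under 0.05, beside 4.73% of all genes tested. DESeq2 and voom called 0 of this list. Over all genes DESeq2 called 36 higher and 18 lower, and voom 5 higher and 0 lower. Those at the highest CPM were BCLAF1, a nuclear protein that binds BCL2 relatives, at 155 and 159.6 CPM in controls against 158 and 182 after Rg3, and BCL2L13, at 54.7 and 50.4 against 55.8 and 51.7 CPM. BNIP3, a hypoxia-induced mitophagy receptor, read 52.7 and 50.2 CPM in controls against 33.3 and 50.7 after Rg3. BCL2L2, the gene of the anti-apoptotic protein BCL-W, read 20.3 and 21.1 CPM in controls against 19.2 and 17.1 after Rg3, and it can share reads with the read-through gene BCL2L2-PABPN1. BCL2A1, BCL2L14 and BCL2L15 had at most 4 counts in a library, and BCL2L10 had 0 in all.

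BMF, a BH3-only gene, was singled out after its values were seen. It read 3.82 and 3.44 CPM in controls against 1.56 and 1.83 CPM after Rg3, from 94, 91, 48 and 44 counts. Both Rg3 libraries were about equally low and well below both controls. The log2 difference was −1.10 (SE 0.26), with an unadjusted p of 0.00325 and an edgeR adjusted p of 0.603, so it did not pass. Without a low-count filter the adjusted p was 0.0390, and with DESeq2 it was 0.719. The log2 fold change ran from −1.22 to −0.98 in the fits that each left out 1 library, and 1.65% of all genes had a larger absolute value.

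Downstream of the pores, edgeR, DESeq2 and voom each called 0 of 13 genes of the mitochondrial pathway. With edgeR, 0 had an unadjusted p under 0.05. Of the 13 log2 fold changes, 10 were above 0 (76.9%, beside 52.5% of all genes tested), and the median was 0.023. Most genes of this list were higher in Rg3 replicate 2 than in Rg3 replicate 1. The median log2 difference of replicate 1 minus 2 was −0.30, beside −0.011 over all genes. CYCS, the cytochrome c gene, read 142 and 149 CPM in controls against 142 and 178 after Rg3. APAF1, the scaffold of the apoptosome, had a log2 fold change of −0.066, its caspase CASP9 0.023, the caspase inhibitor XIAP 0.0099 and its antagonist DIABLO 0.032. The SEs of these 5 genes ran from 0.13 to 0.21.

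Among 18 genes that act on the members, 16 passed the filter and edgeR called 0, with 8 above and 8 below 0 and a median of 0.022. DDIT3 alone had an edgeR unadjusted p under 0.05, or 6.25% of the tested genes of this list beside 4.73% of all genes. DESeq2 called DDIT3 alone, and voom called 0. DDIT3, whose product CHOP acts on BH3-only genes during endoplasmic reticulum stress, read 25.9 and 22.3 CPM in controls against 45.2 and 40.1 CPM after Rg3. Its log2 fold change was 0.82 (SE 0.15), with an edgeR adjusted p of 0.363, 0.0180 with DESeq2 and 0.000896 without a low-count filter. Over the fits that left out a single library its log2 fold change ran from 0.72 to 0.95, and the edgeR adjusted p was 0.467 without control 1, 0.999993 without control 2, 0.00694 when Rg3 replicate 1 was dropped and 0.00204 when Rg3 replicate 2 was. A fit with 1 library in a group takes its spread from the other group and assumes that the lone library varies alike. ATF4, the stress-induced factor upstream of DDIT3 that also acts on PMAIP1, had a log2 fold change of 0.11, and STAT3, which acts on MCL1 and BCL2L1, had 0.23 (0.087 to 0.37 with 1 library left out). FOXO3, a factor of BCL2L11 and BBC3, had −0.13. The MCL1 ubiquitin ligase genes HUWE1 and FBXW7 had −0.0060 and −0.11, and the deubiquitinase gene USP9X had 0.056.

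**Figure D5:**
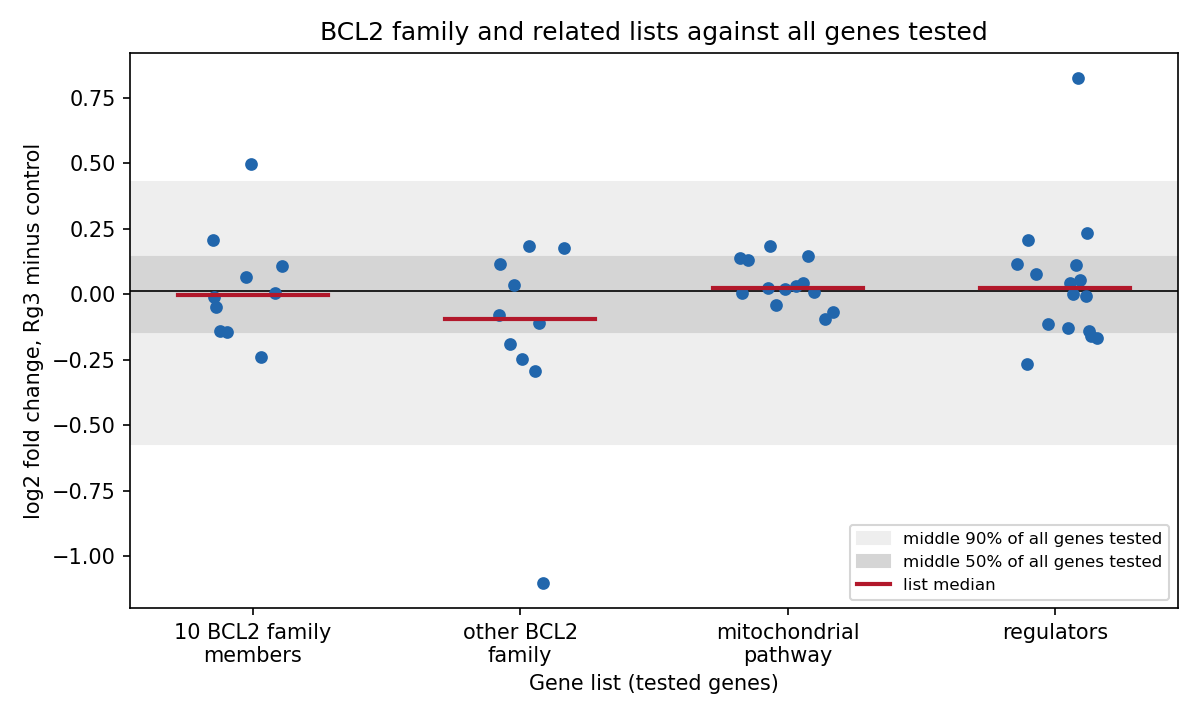
Log2 fold changes of tested genes in 4 lists, with each point a gene and red bars the list medians. Grey bands hold the middle 50% and 90% of all genes tested, and the black line is their median. The medians of all 4 lists lie within 0.1 of 0, and of the 10 family members PMAIP1 alone lies outside the wider band.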

How the data were processed

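TRIzol extraction, removal of ribosomal RNA and a total RNA library kit were used, per the labels' protocols. The deposited table holds raw read counts per gene symbol for each library, not normalised by the authors. The build was GRCh37, per the submitters' processing notes. Aligner, counter, annotation and strand setting are not given in the sources used here. The counts were filtered with filterByExpr (minimum count 10, minimum total 15), scaled by TMM and tested in edgeR 4.0.16 (R 4.3.3) by its quasi-likelihood test of treatment, without other terms, on 2 residual degrees of freedom. The fit ran over all genes, and calls had an adjusted p under 0.05. SEs and intervals come from the F statistic. Alternatives were DESeq2 1.42.0, voom in limma 3.58.1, DESeq2's size factors, no low-count filter, the replicate number as a block and leaving out each library. Members and lists were chosen with earlier results of these data known. Named genes were all members, set names from each list, and any called gene, and BMF was added after its values were seen. Some named genes and 1 list are left out of the text but were part of the fit and of the counts.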

Additional observations from a re-analysis of the deposited data

How the results depend on the processing

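No BCL2 family member was called under any of 9 alternatives, and the lowest adjusted p was 0.0776. Of 90 such log2 fold changes of members, 10 turned sign, in 5 members, while BCL2L1, MCL1, BAX, PMAIP1 and BCL2L11 did not turn. BID was at −0.0076 with voom and −0.00098 with the replicate number as a block. Over fits without 1 library, BCL2 ran from −0.12 to 0.46, BAK1 from −0.10 to 0.075, BBC3 from −0.45 to 0.41, BID from −0.15 to 0.16 and BAD from −0.18 to 0.075. Of these, BAK1 was at 0.031, BBC3 at −0.14 and BAD at 0.011 without control 1. Other named genes that turned sign over such fits were APAF1 (−0.36 to 0.19), CASP9 (−0.021 to 0.069), XIAP (−0.16 to 0.17), CYCS (−0.031 to 0.30), FOXO3 (−0.48 to 0.15), HUWE1 (−0.36 to 0.28) and USP9X (−0.0075 to 0.12). APAF1 was at 0.040 without control 2 and HUWE1 at 0.060 without control 1. HUWE1 was at 0.0024 without a low-count filter and XIAP at −0.0043 with voom. These alternatives for genes outside the family were chosen after seeing the data.

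The median of the members ran from −0.15 (without Rg3 replicate 1) to 0.048. Members with groups that did not overlap numbered 1 above and 1 below with DESeq2's size factors, and 2 above and 1 below without TMM. The share over all genes was not computed under these scalings. The ratio differences of BAK1 to MCL1 and BBC3 to BCL2L1 turned sign without single libraries (−0.30 to 0.053 and −0.14 to 0.45). Over all genes, 5 were called higher and 0 lower, against 90 and 124 without a low-count filter, 36 and 18 with DESeq2, 31 to 428 and 18 to 456 without 1 library, and 69 and 86 with the replicate block, which also called DDIT3 (adjusted p = 0.00186). Fits without 1 library leave a group of 1, so the other group supplies the spread. The cause was not tested. Replicate numbers are shared by the groups, but nothing in the labels pairs them. Deviations of same-numbered libraries correlated at 0.149. With 2 libraries a group the crossed value is its mirror, −0.149, so this cannot decide whether libraries were paired. Depth limited BBC3 most, at 12 to 28 counts. No result met the rules for a closer look, since groups held 2 libraries.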
